A study of Mus musculus with 17 samples.

Results

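The group described here, named Wnt pathway target genes, holds 10 genes chosen by name for their known place in the pathway. They are Axin2, Notum, Nkd1, Tcf7, Lef1, Tcf7l1, Tcf7l2, Sp5, T and Cdx1. All 10 were found among the 25899 gene symbols of the count table, and their newly made RNA was followed across 17 libraries. In canonical Wnt signalling, a Wnt ligand bound to Frizzled and LRP receptors stops a cytoplasmic complex from destroying β-catenin, which then enters the nucleus and joins DNA-bound TCF and LEF factors. Axin2, Notum and Nkd1 are target genes whose products dampen the signal, while the 4 TCF and LEF genes encode the factors that read it. Sp5, T and Cdx1 encode transcription factors that are activated by the pathway in the early embryo. In mouse embryonic stem cells, Tcf7l1 is known as the main repressive TCF, and β-catenin as the factor that relieves its repression.

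The cells were mouse embryonic stem cells of line E14tg2a (129SV), in which Erk1 and Erk2 had been knocked out and FLAG-ERK2 Q103A was expressed from a cDNA. This ERK2 has an enlarged ATP pocket that PP1 can enter. Every group, controls included, carried this replacement together with cRAF-ErT2, a RAF kinase that 4-hydroxytamoxifen (4OHT) activates. The 6 groups were PP1 (2 µM) with 4OHT, MEKi (a MEK inhibitor, 1 µM) with 4OHT, 4OHT alone (250 nM for 2 h), PP1 alone, MEKi alone and DMSO. Each had 3 libraries, from clones a, b and c, except DMSO, which had 2, from clones b and c. The clones come from 1 line, so p-values measure the spread between clones. For Wnt signalling the medium matters: per the labels' protocols, cells were grown in serum and LIF with 2 µM CHIR99021, an inhibitor of the β-catenin kinase GSK3. The medium used from 24 h before treatment is given as serum and LIF with 250 nM PD173074, an FGF receptor inhibitor, and CHIR99021 is not listed for it. How long an inhibitor given alone was present is not stated clearly in the labels.

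RNA that took up ethynyl uridine (5 mM) over 15 minutes was captured and sequenced, so a count reflects RNA made shortly before harvest more than the RNA a cell holds. Library totals ran from 5239690 to 11093390 counts. Levels are CPM, counts scaled to a common library size with TMM factors, and 3 counts, taken as the floor, equal 0.247 to 0.766 CPM by library. The summed level of 6 ERK response genes, Dusp6, Spry4, Spry2, Etv4, Egr1 and Fos, was 1213 to 1329 CPM in PP1 with 4OHT, 24.4 to 27.7 in MEKi with 4OHT, 4523 to 4913 in 4OHT, 171 to 179 in PP1, 87.5 to 104 in MEKi and 310 to 367 in DMSO. The 12 embryonic stem cell markers, led by Esrrb, were detected in every group and summed to 3366 to 4922 CPM. Of 12 primitive streak and mesoderm markers, Foxc2 was at 0 throughout and the sum was 11.8 to 26.1 CPM. In 3 libraries, 4OHT b, PP1 a and MEKi b, 14 loci with very high counts took 28.9%, 42% and 32.6% of all counts, against 9.38% to 21.7% elsewhere. Results are therefore also given without these 3 libraries where that changes a call.

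**Figure D1:**
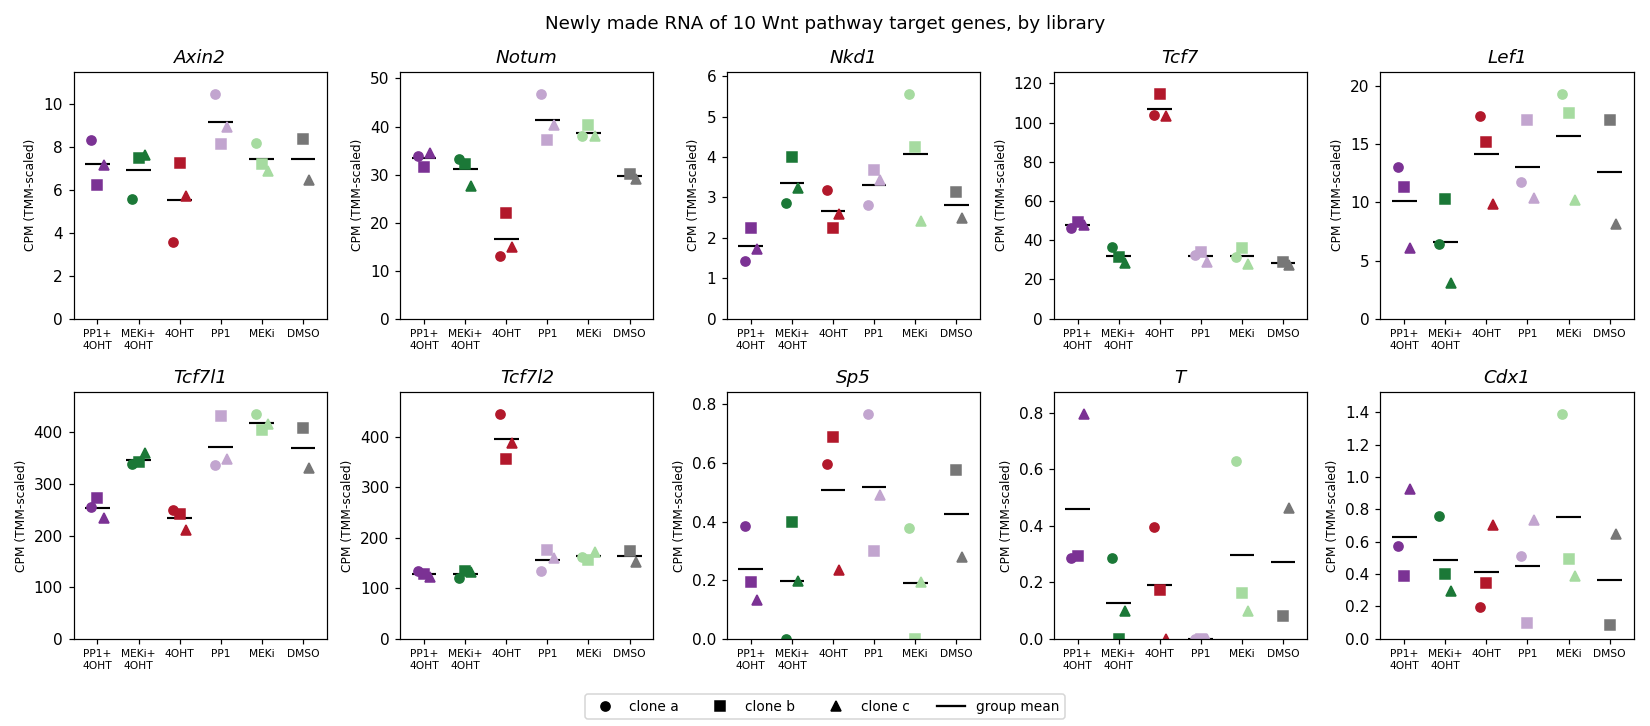
CPM of the 10 Wnt pathway genes (y axes, TMM-scaled) in each library of the 6 groups (x axes), with clones as symbols and the group mean as a bar. Tcf7 and Tcf7l2 are highest in all 3 libraries of 4OHT, Notum is lowest there, and Sp5, T and Cdx1 reach at most 1.39 CPM.

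The members covered a wide range of abundance. Levels of different genes are compared per kilobase (kb), over the gene's merged exons and over its whole span, since the feature counted is not given in the sources used here. In DMSO, Tcf7l1 had 94.3 CPM per kb of exon and 2.27 per kb of span, Tcf7l2 18.6 and 0.851, Notum 12.3 and 4.01, and Tcf7 10.7 and 0.919. In DMSO, Tcf7l1 was thus the most transcribed of the 4 TCF and LEF genes on both scales, and Notum was the highest of the 10 members per kb of span. In 4OHT, Tcf7 was the highest per kb of span, at 3.497 CPM, followed by Notum (2.258), Tcf7l2 (2.065) and Tcf7l1 (1.439). Lef1 and Axin2 were lower per kb of exon than these 4 genes, at 1.44 and 1.35 CPM per kb in DMSO, and Nkd1 had 0.617. Sp5, T and Cdx1 had 0.203, 0.118 and 0.209 CPM per kb of exon in DMSO.

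Sp5, T and Cdx1 were at or near the limit of detection in every group. Sp5, an SP-family factor, had 0 to 7 counts per library and was at 0 in 2 libraries. T, the Brachyury factor of the primitive streak, had 0 to 6 counts and was at 0 in 5 libraries. Cdx1, a homeobox factor of posterior patterning, had 1 to 11 counts. These 3 genes did not pass the filter on low counts, so 7 of the 10 members were tested. T had 3, 3 and 6 counts in PP1 with 4OHT, against 0, 0 and 0 in PP1. Without the filter, this difference had an adjusted p of 0.0322 (edgeR), but 2 of the 3 PP1 with 4OHT libraries were at the floor, so no fold change is given. The other comparisons of Sp5, T and Cdx1 were not called without the filter.

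The stretches of DNA upstream of RefSeq starts of 5 members are shown so that the canonical TCF/LEF letters can be seen beside RNA levels of low, uncalled and called genes. RefSeq promoter windows (GRCm38.p6, 250 bases ending just before the RefSeq start) of 8 of the 10 members (all but Notum and Cdx1) were searched on both strands for CTTTGA and CTTTGT, short forms of the TCF/LEF motif, which are in capitals. Such a match was present in 27.6% of 32817 mouse windows and in 5 of the 13 windows of these members, 1 window each of Sp5, T, Lef1, Tcf7l1 and Tcf7l2. The windows printed are on the plus strand, except that of Tcf7l1, which is on the minus strand. Sp5 lies at chr2:70474923-70477729 and its window at chr2:70474673-70474922. T lies at chr17:8434423-8442496 and its window at chr17:8434173-8434422. Axin2 lies at chr11:108920349-108950783 with its window at chr11:108920099-108920348, and Tcf7l2 at chr19:55741820-55933654 with the windows of its first and second starts at chr19:55741560-55741809 and chr19:55895071-55895320. Tcf7l1 lies at chr6:72626378-72789254 and its window at chr6:72789046-72789295. Part of the Tcf7l1 window, its match included, and all of the second Tcf7l2 window thus lie inside the gene as GENCODE places it. Upstream here refers to the RefSeq start.
Sp5: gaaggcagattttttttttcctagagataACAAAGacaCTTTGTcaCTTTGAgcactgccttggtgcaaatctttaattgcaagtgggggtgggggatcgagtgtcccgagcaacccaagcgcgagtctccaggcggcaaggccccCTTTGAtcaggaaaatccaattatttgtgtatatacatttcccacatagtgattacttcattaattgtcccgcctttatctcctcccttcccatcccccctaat
T: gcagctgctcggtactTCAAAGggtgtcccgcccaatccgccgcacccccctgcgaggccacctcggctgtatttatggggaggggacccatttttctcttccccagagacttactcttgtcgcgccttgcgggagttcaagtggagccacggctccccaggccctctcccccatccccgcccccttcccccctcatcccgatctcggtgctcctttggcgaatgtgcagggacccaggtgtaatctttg
Axin2: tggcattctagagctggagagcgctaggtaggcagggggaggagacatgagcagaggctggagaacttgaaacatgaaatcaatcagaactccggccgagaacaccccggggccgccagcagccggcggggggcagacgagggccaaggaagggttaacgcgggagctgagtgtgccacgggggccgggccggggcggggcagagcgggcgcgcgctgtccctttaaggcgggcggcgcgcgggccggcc
Tcf7l1: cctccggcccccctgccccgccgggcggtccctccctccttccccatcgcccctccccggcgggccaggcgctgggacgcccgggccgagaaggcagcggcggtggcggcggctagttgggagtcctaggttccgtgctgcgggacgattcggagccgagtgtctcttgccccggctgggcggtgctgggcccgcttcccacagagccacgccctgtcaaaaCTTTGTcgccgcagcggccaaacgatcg
Tcf7l2, first start: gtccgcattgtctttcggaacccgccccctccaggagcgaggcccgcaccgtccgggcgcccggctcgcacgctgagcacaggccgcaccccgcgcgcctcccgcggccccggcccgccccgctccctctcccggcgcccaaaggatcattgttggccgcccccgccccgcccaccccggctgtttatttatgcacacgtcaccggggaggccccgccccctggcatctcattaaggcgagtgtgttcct
Tcf7l2, second start: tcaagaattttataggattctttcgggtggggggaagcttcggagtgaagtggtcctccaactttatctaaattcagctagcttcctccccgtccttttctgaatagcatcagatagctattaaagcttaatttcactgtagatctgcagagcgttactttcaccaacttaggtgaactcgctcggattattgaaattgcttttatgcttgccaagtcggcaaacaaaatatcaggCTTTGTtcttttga
Sp5 had 4 matches and T had 1, and both were at the floor of detection. Tcf7l1 had 1 match, 28 bases upstream of its start. Tcf7l2 had none in its first window and 1 in its second, 14 bases upstream of that start, and Axin2 had none. RNA of Tcf7l1 and Tcf7l2 differed between groups. Tcf7, whose RNA rose most of the tested members with 4OHT against DMSO, had 0 matches in its windows. Lef1, not called in that comparison, had 3 matches in 1 of its windows. Nkd1, also not called there, had 0 matches. Whether a match goes with a change in RNA was not tested. The SP/KLF letters GGGCGG occurred 6 times in the first window of Tcf7l2, and at least 1 time in 32.7% of all windows. None of the 6 windows printed held the ETS letters CGGAAG, found in 13.6% of all windows, or the AP-1 letters TGANTCA, found in 6.75%. Of the members' windows not printed, that of the second Tcf7 start held the ETS letters 1 time. These matches are a description of the letters in the windows.

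The first comparison asked what RAF activation did to the members in 2 h. With 4OHT, new RNA of Tcf7 and Tcf7l2 rose and that of Tcf7l1 and Notum fell against DMSO, while Axin2, Lef1 and Nkd1 did not pass the test. That is 4 of 7 tested members with an adjusted p under 0.05 (edgeR, Benjamini-Hochberg), where 52% of all 14907 genes tested were called, 25.7% higher and 26.3% lower. With library totals in place of TMM factors, the share of these calls that were higher was 21.1% and not 49.4%, and the median of all genes was -0.32. The 4 calls held in each of 17 alternatives, library totals included, but a 2-fold limit, which is not counted among the alternatives here or in the comparisons that follow, keeps Tcf7 and Tcf7l2 only. The share of members called was therefore near that of all genes. Their split by direction, 2 higher and 2 lower, was also near that of all genes. The median log2 fold change of the 7 members was -0.06, against -0.02 over all genes.

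Tcf7, which encodes TCF1, an activating TCF in stem cells, had 104, 114 and 103 CPM in 4OHT (clones a, b and c) and 28.8 and 27.5 CPM in DMSO (clones b and c). All 3 libraries with 4OHT lay far above both controls. The mean was 107 ± 6.31 CPM in 4OHT (SD, n = 3) and 28.1 ± 0.913 CPM in DMSO (SD, n = 2), a 3.80-fold rise (log2 1.93 ± 0.12 SE, adjusted p = 3.61e-12). Tcf7l2, which encodes TCF4, had 444, 357 and 387 CPM in 4OHT and 174 and 152 CPM in DMSO. It rose 2.43-fold (log2 1.28 ± 0.10, adjusted p = 3.7e-10), and the groups did not overlap.

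Tcf7l1, the repressive TCF3 of stem cells, moved the other way. It had 249, 243 and 211 CPM in 4OHT and 409 and 332 CPM in DMSO, and fell by 0.66 ± 0.10 on the log2 scale (adjusted p = 7.74e-06). Its lowest DMSO library was above every library with 4OHT. Notum encodes a secreted enzyme that inactivates Wnt ligands by removing their lipid. It had 13.1, 22.1 and 14.9 CPM in 4OHT and 30.03 and 29.2 CPM in DMSO, and fell by 0.86 ± 0.15 (adjusted p = 4e-05). The groups did not overlap, although clone b was higher than clones a and c in 4OHT.

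Axin2, a scaffold of the β-catenin destruction complex and a widely used reporter of the pathway, had 3.57, 7.24 and 5.74 CPM in 4OHT and 8.39 and 6.48 CPM in DMSO. The groups overlapped through clone b of 4OHT, and the log2 fold change of -0.48 ± 0.24 was not called (adjusted p = 0.106). It was called in 4 of 17 alternatives: without that library (-0.68, adjusted p = 0.0324), without the 3 libraries rich in high-count loci (-0.70, adjusted p = 0.0271) with library totals (-0.78, adjusted p = 0.014), and with library totals after leaving out those loci (-0.72, adjusted p = 0.0153). Over the 17 alternatives the adjusted p ran from 0.014 to 0.577. Lef1, the fourth TCF/LEF gene, had 17.5, 15.2 and 9.84 CPM in 4OHT and 17.1 and 8.15 CPM in DMSO, which overlap fully (log2 0.16 ± 0.47, adjusted p = 0.802). Nkd1, whose product binds Dishevelled, had 2.24 to 3.18 CPM in 4OHT and 2.50 to 3.13 CPM in DMSO (log2 -0.06 ± 0.33, adjusted p = 0.9). At 13 to 38 counts per library in these groups, Nkd1's 95% interval of -0.78 to 0.66 leaves room for a change of either sign.

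**Figure D2:**
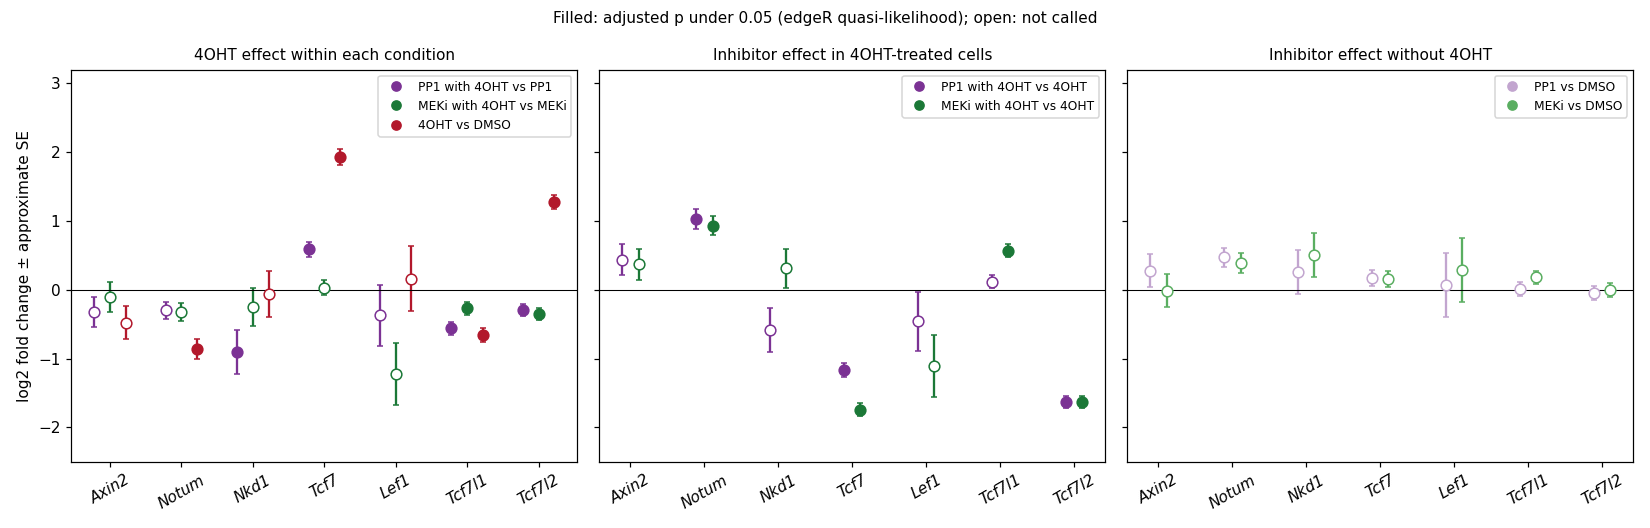
Log2 fold changes (points) ± approximate SE (bars) of the 7 tested members in 7 comparisons of the groups; filled points passed the adjusted p of 0.05. Tcf7 and Tcf7l2 lie highest for 4OHT against DMSO (1.93 and 1.28) and lowest when either inhibitor was added to 4OHT, and no point is filled for the inhibitors without 4OHT.

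Because Tcf7l1 and both rising TCF genes were read in the same library, their balance can be given as a ratio of raw counts that no scaling affects. The ratio of Tcf7l1 to Tcf7 was 5.32 ± 0.350 in PP1 with 4OHT, 10.96 ± 1.73 in MEKi with 4OHT, 2.19 ± 0.188 in 4OHT, 11.7 ± 1.25 in PP1, 13.3 ± 1.97 in MEKi and 13.1 ± 1.51 in DMSO (SD, n = 3, DMSO 2). The 4OHT libraries ran from 2.04 to 2.40 and those of DMSO from 12.1 to 14.2. PP1 with 4OHT lay between, at 4.91 to 5.52, and overlapped no other group. The ratio of Tcf7l1 to Tcf7l2 was 1.98 ± 0.132 in PP1 with 4OHT, 2.71 ± 0.117 in MEKi with 4OHT, 0.595 ± 0.0740 in 4OHT, 2.39 ± 0.190 in PP1, 2.57 ± 0.144 in MEKi and 2.26 ± 0.116 in DMSO. PP1 with 4OHT, at 1.90 to 2.13, again lay between 4OHT and the other 4 groups without overlap. Tcf7l2 counts exceeded Tcf7l1 counts in each of the 3 libraries of 4OHT and in no other library. Of all counts of the 4 TCF and LEF genes, Tcf7l2 took 52.6% ± 3.21 in 4OHT and 28.5% ± 1.11 in DMSO, Tcf7 took 14.3% ± 1.497 in 4OHT and 4.94% ± 0.506 in DMSO, and Tcf7l1 took 31.2% ± 1.88 in 4OHT and 64.4% ± 0.802 in DMSO. These shares are of counts, which also depend on gene length.

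**Figure D3:**
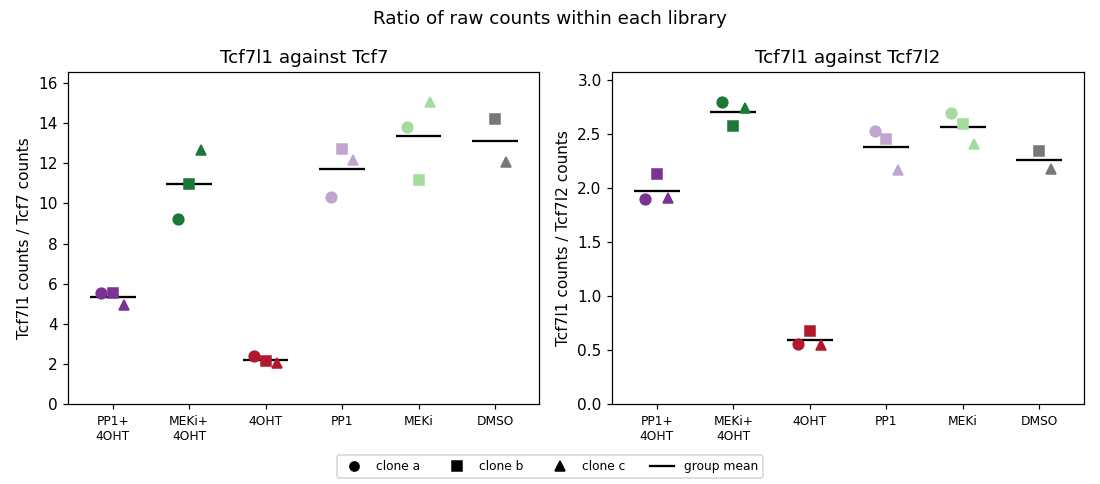
Ratio of raw counts of Tcf7l1 to Tcf7 (left) and of Tcf7l1 to Tcf7l2 (right) within each library, by group (x axis), with clones as symbols and the group mean as a bar. The 4OHT libraries are lowest in both panels (means 2.19 and 0.595), and PP1 with 4OHT lies between 4OHT and the other 4 groups in both (5.32 and 1.98).

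The inhibitors were then set against 4OHT, to ask how adding MEKi or PP1 altered these levels. These comparisons, and those above, share the 4OHT libraries, so their values are given side by side and are not independent. In cells given 4OHT, MEKi was followed by lower Tcf7 and Tcf7l2 and higher Tcf7l1 and Notum. These are 4 of 7 members called, where 56.8% of all genes were called, 28.4% in each direction. With PP1, 3 of 7 members were called, Tcf7 and Tcf7l2 lower and Notum higher, where 41.8% of all genes were called, 21.4% higher and 20.5% lower.

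Tcf7 had 36.7, 31.2 and 28.4 CPM in MEKi with 4OHT (clones a, b and c), a log2 difference of -1.74 ± 0.10 from 4OHT (adjusted p = 7.79e-13). In PP1 with 4OHT it had 46.2, 49.4 and 47.7 CPM, a difference of -1.16 ± 0.10 from 4OHT (adjusted p = 1.95e-09). Every library with an inhibitor was below every 4OHT library, and every PP1 library was above every MEKi library. Tcf7l2 had 121, 133 and 131 CPM in MEKi with 4OHT and 134, 128 and 123 CPM in PP1 with 4OHT. It was lower than in 4OHT by the same rounded amount with each inhibitor, -1.63 ± 0.09 (adjusted p = 3.1e-13 for MEKi and 1.25e-12 for PP1).

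Notum had 33.3, 32.2 and 27.6 CPM in MEKi with 4OHT, 0.93 ± 0.14 above 4OHT on the log2 scale (adjusted p = 3.82e-06). It had 33.8, 31.7 and 34.5 CPM in PP1 with 4OHT, 1.03 ± 0.14 above 4OHT (adjusted p = 2.03e-06). Neither group overlapped 4OHT. Tcf7l1 had 338, 343 and 360 CPM in MEKi with 4OHT, 0.57 ± 0.09 above 4OHT (adjusted p = 1.29e-05), and 255, 273 and 234 CPM in PP1 with 4OHT. The PP1 libraries overlapped those of 4OHT (log2 0.12 ± 0.09, adjusted p = 0.333), and the difference was called in 1 of 18 alternatives, with library totals after leaving out the high-count loci (0.30, adjusted p = 0.0108). Axin2 had 6.22 to 8.33 CPM in PP1 with 4OHT, 5.60 to 7.65 CPM in MEKi with 4OHT and 3.57 to 7.24 CPM in 4OHT, which overlap. Its log2 differences from 4OHT, 0.44 with PP1 (adjusted p = 0.131) and 0.37 with MEKi (0.172), were not called. They were called higher with library totals (0.67, adjusted p = 0.0285 for PP1, and 0.72, 0.0117 for MEKi), with library totals after leaving out the high-count loci (0.61, 0.0303, and 0.67, 0.0135) and without the 3 libraries rich in those loci (0.65, 0.0344, and 0.58, 0.0446). The PP1 difference was also called without 4OHT b (0.64, adjusted p = 0.0408). Over 18 alternatives the adjusted p ran from 0.0285 to 0.644 for PP1 and from 0.0117 to 0.742 for MEKi.

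A direct comparison of PP1 with 4OHT and MEKi with 4OHT tested the inhibitors against each other. Of the 7 members, 3 were called, where 28.2% of all genes were called, 15.2% higher and 13% lower. Tcf7 was higher with PP1 (47.7 ± 1.59 CPM in PP1 with 4OHT against 32.1 ± 4.19 CPM in MEKi with 4OHT, SD, n = 3 each, log2 0.57 ± 0.10, adjusted p = 0.000196), a call lost with library totals (0.45, adjusted p = 0.0512) but held in the other 17 alternatives. Tcf7l1 was lower with PP1 (254 ± 19.2 CPM in PP1 with 4OHT against 347 ± 11.6 CPM in MEKi with 4OHT, SD, n = 3 each, log2 -0.45 ± 0.09, adjusted p = 0.000595). The groups did not overlap for either gene. Nkd1 had 1.44, 2.23 and 1.72 CPM in PP1 with 4OHT and 2.85, 3.99 and 3.24 CPM in MEKi with 4OHT (log2 -0.89 ± 0.30, adjusted p = 0.0308). Its groups did not overlap, but it had 13 to 40 counts per library and the call was lost without PP1 with 4OHT a (-0.75, adjusted p = 0.128) or c (-0.87, 0.0788), and without MEKi with 4OHT b (-0.75, 0.126) or c (-0.94, 0.0501). Over its 18 alternatives the adjusted p ran from 0.0163 to 0.128. Tcf7l2 and Notum did not differ between the inhibitors by the test, with 95% intervals of -0.20 to 0.20 and -0.18 to 0.38 on the log2 scale.

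The effect of 4OHT was also read within each inhibitor. With PP1 present, 4 of 7 members were called, where 31.3% of all genes were called, 18.4% higher and 12.8% lower. Tcf7 still rose, to 47.7 ± 1.59 CPM in PP1 with 4OHT, against 31.8 ± 2.75 CPM in PP1 (SD, n = 3 each, log2 0.59 ± 0.11, adjusted p = 0.000265). Tcf7l1 fell to 254 ± 19.2 CPM in PP1 with 4OHT, against 373 ± 51.4 CPM in PP1 (log2 -0.56 ± 0.09, adjusted p = 8.58e-05), a call lost with library totals (-0.44, adjusted p = 0.0913) and held in the other 17 alternatives. Neither gene's groups overlapped. Against DMSO, the 4OHT difference was -0.66 for Tcf7l1 and 1.93 for Tcf7.

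Tcf7l2 fell with 4OHT in the presence of PP1, the reverse of its rise against DMSO. It had 134, 128 and 123 CPM in PP1 with 4OHT and 133, 175 and 161 CPM in PP1 (log2 -0.29 ± 0.09, adjusted p = 0.0172). Clone a had nearly equal levels, so the groups overlapped. The call was lost without PP1 with 4OHT c (-0.26, adjusted p = 0.0688), PP1 b (-0.21, 0.133) or PP1 c (-0.28, 0.0561), and with library totals (-0.18, 0.537), and over 18 alternatives its adjusted p ran from 0.000239 to 0.537. Nkd1 had 1.44, 2.23 and 1.72 CPM in PP1 with 4OHT and 2.81, 3.68 and 3.43 CPM in PP1 (log2 -0.91 ± 0.32, adjusted p = 0.0328). Its groups did not overlap, and the call was lost without PP1 with 4OHT a (-0.78, 0.119) or c (-0.88, 0.078), without PP1 b (-0.82, 0.119) or c (-0.89, 0.0767), and with library totals (-0.80, 0.111). Its adjusted p ran from 0.0199 to 0.119. Notum had 31.7 to 34.5 CPM in PP1 with 4OHT and 37.2 to 46.7 CPM in PP1, with no overlap, and its -0.30 ± 0.13 was not called (adjusted p = 0.0835). Of 18 alternatives 2 called it, library totals after leaving out the high-count loci (-0.39, adjusted p = 0.028) and the fit of only the libraries compared (-0.35, 0.0301), and the adjusted p ran from 0.028 to 0.435.

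With MEKi present, 2 of 7 members were called, both lower with 4OHT, where 14.7% of all genes were called, 7.65% higher and 7.03% lower. Tcf7l2 had 121, 133 and 131 CPM in MEKi with 4OHT and 161, 156 and 172 CPM in MEKi (log2 -0.35 ± 0.09, adjusted p = 0.0119), and the groups did not overlap. Library totals ended this call (-0.18, adjusted p = 0.6), and it held in the other 17 alternatives. Tcf7l1 had 338, 343 and 360 CPM in MEKi with 4OHT and 435, 404 and 416 CPM in MEKi (log2 -0.27 ± 0.09, adjusted p = 0.0477). Its groups did not overlap either, but the call was lost in 8 of 18 alternatives, in which the adjusted p reached 0.766 with library totals (-0.11). They include the fits without MEKi with 4OHT a (-0.26, adjusted p = 0.103), b (-0.29, 0.065) or c (-0.30, 0.0591) and without MEKi a (-0.24, 0.158) or c (-0.30, 0.0536). Notum had 27.6 to 33.3 CPM in MEKi with 4OHT and 37.98 to 40.2 CPM in MEKi, with no overlap, and its -0.32 ± 0.13 was not called (adjusted p = 0.101). It was called without the 3 libraries rich in high-count loci (-0.31, adjusted p = 0.043) and in the fit of only the libraries compared (-0.34, 0.0395), and the adjusted p ran from 0.0395 to 0.567 over 18 alternatives. Tcf7 was not called: its means were 32.1 ± 4.19 CPM in MEKi with 4OHT and 31.8 ± 4.25 CPM in MEKi (log2 0.03 ± 0.11, adjusted p = 0.908).

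Lef1 was the only tested member whose calls changed with clone as a block in the fit. Clone c had the lowest Lef1 of its group in 6 of 6 groups, among them DMSO, which had clones b and c only. For Tcf7, clone c was lowest in 5 of 6 groups. In MEKi with 4OHT, Lef1 had 6.46, 10.3 and 3.04 CPM in clones a, b and c, against 19.3, 17.7 and 10.2 CPM in MEKi. It was lower in each of the 3 clones, by 1.58, 0.78 and 1.75 on the log2 scale. Without clone in the fit the difference was -1.23 ± 0.45 (adjusted p = 0.0904), not called. With clone as a block it was -1.29 (adjusted p = 2.48e-05). Over its 18 alternatives the adjusted p ran from 2.48e-05 to 0.265, and DESeq2 (0.0417), limma-voom (0.0328) and the fit without MEKi with 4OHT b (0.0405) also called it.

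The clone block also called Lef1 lower in MEKi with 4OHT than in 4OHT (-1.16, adjusted p = 1.18e-05, against -1.11 and 0.0534 without the block), where 8 of 18 alternatives called it, among them the fits without MEKi with 4OHT b (-1.60, 0.0158) or 4OHT c (-1.34, 0.0387), and the adjusted p ran from 1.18e-05 to 0.173. It called Lef1 lower in PP1 with 4OHT than in 4OHT (-0.50, adjusted p = 0.027, against -0.46 and 0.443) and higher in PP1 with 4OHT than in MEKi with 4OHT (0.65, adjusted p = 0.0118, against 0.65 and 0.329). The block was the only one of 18 alternatives to call either difference, and the adjusted p reached 0.753 and 0.684. Lef1 in PP1 with 4OHT had 13.0, 11.4 and 6.09 CPM, so each clone lay between its own values in 4OHT and in MEKi with 4OHT. Lef1 was not called for 4OHT against DMSO in any of 17 alternatives.

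**Figure D4:**
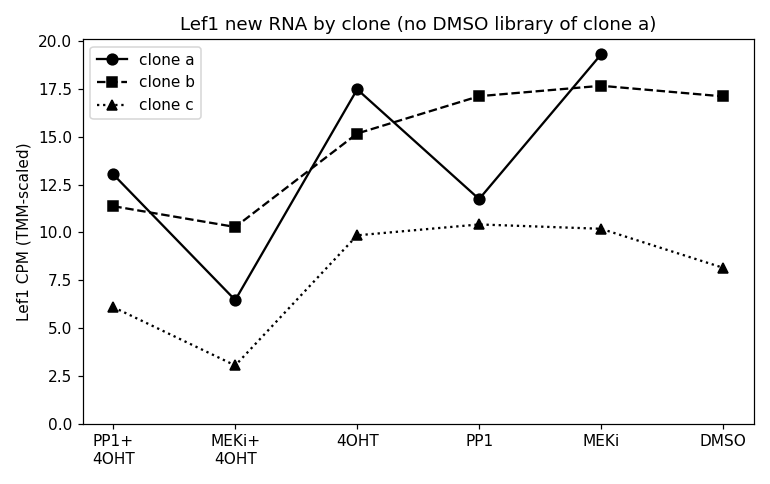
Lef1 CPM (y axis, TMM-scaled) in the 6 groups (x axis), with a line joining the libraries of each clone; clone a has no DMSO library. Clone c is lowest in every group, and each clone has its lowest value in MEKi with 4OHT (6.46, 10.3 and 3.04 CPM in clones a, b and c).

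Without 4OHT, the inhibitors were compared with DMSO and with each other, to read the level before RAF activation. edgeR called 0 of 7 members for PP1 against DMSO, where 0.241% of all genes were called (0.0805% higher, 0.161% lower), 0 of 7 for MEKi against DMSO, where 0.53% were called (0.0805% higher, 0.449% lower), and 0 of 7 for PP1 against MEKi, where 0.0738% were called. DESeq2 and limma-voom also called 0 of them. At an unadjusted p under 0.05 there was 1 member, Notum, in each comparison with DMSO and 0 between PP1 and MEKi, where 10.8%, 11.3% and 4.07% of all genes were under that limit. Notum had 46.7, 37.2 and 40.3 CPM in PP1, 38.0, 40.2 and 38.0 CPM in MEKi and 30.03 and 29.2 CPM in DMSO. Both inhibitor groups lay wholly above DMSO (log2 0.47 ± 0.14, adjusted p = 0.2 for PP1, and 0.39 ± 0.14, adjusted p = 0.289 for MEKi). For the other 6 members PP1 and MEKi overlapped DMSO, with the widest 95% intervals for Lef1 (-0.97 to 1.11 for PP1 and -0.74 to 1.31 for MEKi).

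Interaction terms tested whether the 4OHT effect itself differed by inhibitor. The effect of 4OHT with MEKi minus that without inhibitor was called for 4 members, where 40.4% of all genes were called. It was -1.90 ± 0.16 for Tcf7 (adjusted p = 1.7e-09), -1.63 ± 0.14 for Tcf7l2 (1.67e-09), 0.39 ± 0.14 for Tcf7l1 (0.0251) and 0.55 ± 0.20 for Notum (0.0307). With PP1 in place of MEKi it was called for 3 members, where 26.5% of all genes were called: Tcf7 at -1.34 ± 0.16 (1.25e-06), Tcf7l2 at -1.57 ± 0.14 (1.36e-08) and Notum at 0.57 ± 0.20 (0.0382). For Tcf7l1 the PP1 term was 0.10 ± 0.14 (adjusted p = 0.618), with a 95% interval of -0.20 to 0.41. Between PP1 and MEKi the 4OHT effect differed for 1 member, Tcf7 (0.56 ± 0.15, adjusted p = 0.0165), where 12.3% of all genes were called, 7.41% higher and 4.86% lower. Tcf7l1, at -0.29 ± 0.13 (adjusted p = 0.168), was called there in 1 of 24 alternatives, with library totals after leaving out the high-count loci (-0.41, adjusted p = 0.0361). The clone block added Lef1 to the MEKi term (-1.39, adjusted p = 0.000249, against 0.111) and to the difference between inhibitors (0.86, adjusted p = 0.0285, against 0.466). The MEKi term of Lef1 was also called with limma-voom (-1.51, adjusted p = 0.0336) and without MEKi with 4OHT b (-1.91, 0.0352) or DMSO b (-2.07, 0.0495), and over 23 alternatives its adjusted p ran from 0.000249 to 0.299.

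The terms of Tcf7 and Tcf7l2 against no inhibitor were called in each of 23 alternatives. The others rested on single libraries, and those of Notum for PP1 and Tcf7 between inhibitors also on other settings of the fit. The Tcf7l1 term for MEKi was lost without MEKi with 4OHT b (0.35, adjusted p = 0.0555) or c (0.33, 0.0704), 4OHT c (0.27, 0.109), MEKi b (0.35, 0.0542) or c (0.33, 0.0705), DMSO b (0.19, 0.315), and the 3 libraries rich in high-count loci (0.38, 0.0573). The Notum term for MEKi was lost without MEKi with 4OHT a (0.45, 0.112) or b (0.47, 0.093), 4OHT a (0.35, 0.167) or c (0.44, 0.122), MEKi c (0.48, 0.0915), and DMSO b (0.49, 0.124) or c (0.51, 0.101). The Notum term for PP1 was called in 9 of 23 alternatives, and was lost without any of PP1 with 4OHT a, b or c, 4OHT a or c, PP1 b or c, and DMSO b or c (0.35 to 0.55, largest adjusted p 0.221). With all libraries it was lost with DESeq2 (0.51, adjusted p = 0.0603), its size factors (0.51, 0.064) and no filter (0.52, 0.0513). Leaving out the high-count loci under TMM (0.54, 0.0506) and fitting only the libraries compared (0.56, 0.0613) lost it too. The Tcf7 difference between inhibitors was lost without PP1 with 4OHT b (0.51, 0.0633), MEKi with 4OHT c (0.45, 0.0766), PP1 c (0.49, 0.0583) or MEKi b (0.45, 0.0648), and with library totals (0.51, 0.284). It was also lost with library totals after leaving out the high-count loci (0.44, adjusted p = 0.0716).

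Each member thus had its own order of groups. Tcf7 was highest in 4OHT, then in PP1 with 4OHT, and the means of the other 4 groups, 28.1 to 32.1 CPM, did not differ beyond their spread where tested. Tcf7l2 was highest in 4OHT, followed by DMSO, MEKi and PP1 at 157 to 163 CPM, which were not told apart, and by MEKi with 4OHT and PP1 with 4OHT, both at 128 CPM. Tcf7l1 was highest in MEKi at 418 CPM, which was not told apart from PP1 or DMSO, and lowest in PP1 with 4OHT and 4OHT, whose difference was not called with TMM factors. Notum was lowest in 4OHT, and its other group means ran from 29.6 to 41.4 CPM. Axin2 group means ran from 5.52 CPM in 4OHT to 9.19 CPM in PP1, and no comparison of them was called with TMM factors and all libraries.

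Over the 17 libraries, the log2 levels of Tcf7 and Tcf7l2 had a Pearson's r of 0.81, and those of Notum had an r of -0.80 with Tcf7 and -0.84 with Tcf7l2. Notum and Axin2, both feedback inhibitors, had an r of 0.77. Lef1 had an r between -0.02 and 0.39 with each other tested member. These are descriptions over 17 libraries that share 6 treatments and 3 clones. Among 12105 genes, those whose levels followed Tcf7 most closely were Hmox1 (r = 0.987), Itgb1 (0.986) and Id1 (0.984). For Tcf7l2 they were Fam19a5 (0.977), Ascc3 (0.976) and Uhrf1bp1l (0.974), for Tcf7l1 Med13l (0.957), Chrna7 (0.957) and Rad51b (0.956), and for Notum Prdx6 (0.966), Gdf3 (0.957) and Jak3 (0.947). Lef1 was followed by Lin28b (0.904), Trio (0.885) and Gfod1 (0.869), and Axin2 and Nkd1 had no gene above 0.858 and 0.864.

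To place the members in their pathway, 6 lists of other Wnt genes were counted, 133 genes of which 117 were tested. With 4OHT against DMSO, 35 rose and 37 fell, 61.5% of those tested, against 52% of all genes. With library totals 18 were higher and 43 lower. Counts in each direction are given by role. Of 10 secreted inhibitors tested, 1 rose and 6 fell: Sfrp1, which binds Wnt ligands, had 64.9 ± 18.1 CPM in 4OHT and 170 ± 11.8 CPM in DMSO (log2 -1.40 ± 0.16), and Sfrp4 fell by 2.17 ± 0.22. Of 24 receptors, co-receptors and R-spondins, 4 rose and 11 fell, with Lgr6 at 2.59 ± 0.29, the co-receptor Lrp6 at 0.55 ± 0.07 and the agonist Rspo2 at -2.39 ± 0.36. Of 16 ligands and secretion genes, 4 rose and 4 fell. Wnt7b had 62.5 ± 8.27 CPM in 4OHT and 10.1 ± 1.68 CPM in DMSO (log2 2.63 ± 0.16), while Wls, which carries Wnt proteins to the surface, had 32.4 ± 2.57 CPM in 4OHT and 92.4 ± 2.17 CPM in DMSO (adjusted p = 3.44e-11).

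The lists for the inside of the cell had more rises than falls with TMM factors. Of 21 genes of β-catenin and its destruction complex, 11 rose and 2 fell: Ctnnb1, β-catenin itself, had 387 ± 24.6 CPM in 4OHT and 239 ± 8.97 CPM in DMSO (log2 0.69 ± 0.08), the kinase gene Csnk1a1 changed by 0.84 ± 0.07 and Btrc, of the ubiquitin ligase that marks β-catenin, by -0.79 ± 0.10. Of 18 nuclear cofactors, 7 rose and 3 fell, among them the corepressor gene Tle4 (0.75 ± 0.09) and the coactivator gene Ep300 (0.69 ± 0.07). With library totals as the scaling the destruction complex list had 4 higher and 3 lower and the cofactors 1 higher and 4 lower, beside the median of -0.32 over all genes under that scaling. The secreted inhibitors were 0 higher and 6 lower under that scaling. Of 28 other Wnt targets, 8 rose and 11 fell under both scalings, for example Ccnd2 (2.93 ± 0.47), Ccnd1 (-1.69 ± 0.17) and Tbx3 (-1.20 ± 0.12). Cdx2, a relative of Cdx1, had 6.22 ± 2.77 CPM in 4OHT, while its DMSO mean of 0.0411 CPM was under the floor.

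**Figure D5:**
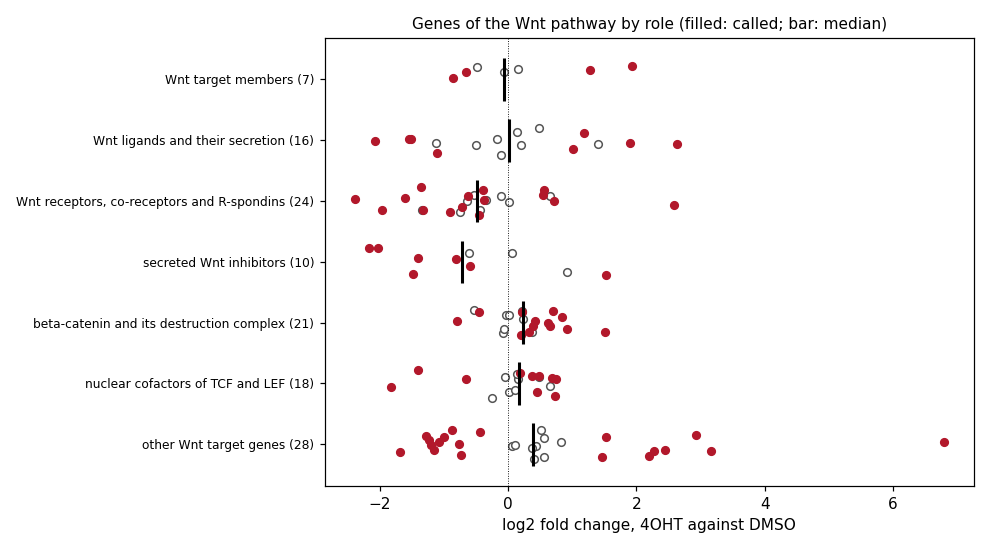
Log2 fold change for 4OHT against DMSO (x axis) of the tested members and of the 6 lists by role (rows, with the number of genes tested), where filled points were called and the bar is the median. Secreted inhibitors lie mostly left of 0 (6 of 10 lower) and genes of β-catenin and its destruction complex mostly right of it (11 of 21 higher, but 4 with library totals). The rightmost point is Cdx2, whose DMSO level was under the floor.

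With an inhibitor present fewer of these genes, and fewer of all genes, were called. For PP1 with 4OHT against PP1, 18 of the 117 were higher and 26 lower, 37.6% against 31.3% of all genes. For MEKi with 4OHT against MEKi 6 were higher and 15 lower, 17.9% against 14.7% of all genes. With library totals these were 10 higher and 11 lower, and 9 higher and 4 lower, so the MEKi split turned round. Ctnnb1 had a log2 fold change of 0.13 in the PP1 pair and -0.03 in the MEKi pair, neither called. Sfrp1 fell in the PP1 pair (132 ± 9.56 CPM in PP1 with 4OHT and 199 ± 19.8 CPM in PP1, log2 -0.59 ± 0.14). Tle4 rose with 4OHT in the PP1 pair (0.32 ± 0.08) and fell in the MEKi pair (-0.56 ± 0.08).

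The markers of other cell types were read beside these changes. In 4OHT the summed streak and mesoderm markers were 22.2 to 26.1 CPM, against 15.7 to 16.1 CPM in DMSO, and the neuroectoderm markers 29.5 to 36.7 CPM in 4OHT against 15.2 to 17.8 CPM in DMSO, with Tubb3 at 0. In the neuroectoderm list Nes rose, to 23.4 ± 3.79 CPM in 4OHT against 4.77 ± 1.51 CPM in DMSO, and Pax6 fell (log2 -0.79 ± 0.27, adjusted p = 0.0171), the 2 called of 4 tested. Of 3 fibroblast markers tested, Vim rose to 295 ± 12.8 CPM in 4OHT, against 38.7 ± 4.71 CPM in DMSO, Twist1 rose (log2 3.87 ± 0.49) and Fn1 fell (-1.28 ± 0.22), while 7 of the 10 listed averaged under 1 CPM. The summed fibroblast markers were 469.5 to 632 CPM in 4OHT and 572 to 638 CPM in DMSO. Of 6 trophoblast markers tested, Krt8 (1.47 ± 0.40) and Cdx2 rose and Tfap2c fell (-1.08 ± 0.20), with sums of 32.5 to 38.4 CPM in 4OHT and 33.6 to 37.5 CPM in DMSO. Of 8 endoderm markers tested, Dab2 (-1.93 ± 0.25) and Sox7 fell and 0 rose, with sums of 13.4 to 23.8 CPM in 4OHT and 20.9 to 22.95 CPM in DMSO. The 4OHT mean of Sox7, 0.410 CPM, lay among the floors of the 4OHT libraries (0.298 to 0.517 CPM). No fold change is therefore given for Sox7. Of 7 streak and mesoderm markers tested, Fgf8 and Evx1 (2.34 ± 0.61) rose and 0 fell. The DMSO mean of Fgf8, 0.175 CPM, was under the floor, so no fold change is given for it. Those of Evx1 (0.607 CPM) and Twist1 (0.530 CPM) were near the DMSO floors of 0.247 and 0.278 CPM. Embryonic stem cell markers summed to 3366 to 3834 CPM in 4OHT and 4368 to 4678 CPM in DMSO, with 2 of 12 called higher and 6 lower. The part of these shifts in the members' changes was not tested, and in bulk RNA fewer cells of a type and less RNA per cell cannot be told apart. GENCODE annotates antisense or overlapping transcripts at Axin2, Lef1, Tcf7, Tcf7l1, Tcf7l2, Nkd1 and Notum. The strand setting of the counting is not known here, so their reads cannot be told apart from the members'; the partners that have an entry in the table had 0 counts.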

How the data were processed

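New RNA was measured in 17 libraries of 3 clones. The deposited table holds whole-number counts per gene symbol, with no normalization. Per the submitters' processing notes, STAR, featureCounts and mm10 were used and no versions, annotation, counted feature or strand setting are given there. The deposited counts went into edgeR (version 4.0.16, R 4.3.3). Scaling was by TMM, filterByExpr kept 14907 of 25899 genes, and the quasi-likelihood model, robust and with 1 term per group, used all 17 libraries (11 residual degrees of freedom, biological coefficient of variation 0.0977). The 9 comparisons of groups and 3 interactions were adjusted by Benjamini-Hochberg over all genes tested and called under 0.05. A standard error is the absolute log2 fold change over the square root of F, an approximation. Correlations used log2 CPM with a prior count of 2. The fit was also run on simulated counts in which few genes changed. Clone effects and uneven high-count loci were not simulated, so that run does not cover them. Clone letters in the labels pair libraries. After subtraction of group means, same-clone pairs had a mean r across genes of 0.0859 (-0.147 to 0.362, 16 of 40 above 0.1). Different-clone pairs had a mean r of -0.0425 (-0.404 to 0.404, 8 of 80 above 0.1), so the ranges overlapped. Blocked values are given where they change a call.

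Positions and gene models come from GENCODE M21 (mm10), matched by symbol, and promoter windows from RefSeq (GRCm38.p6). The members, gene lists and rules were chosen with earlier results of these data known. All 10 members were to be named, with up to 4 called genes per direction of each list by size of change, the leading marker gene, and the 3 genes most correlated with each tested member (average log2 CPM of at least 1, predicted symbols left out). Alternatives were DESeq2 (1.42.0) and its size factors, limma-voom (limma 3.58.1), library totals, no filter or a stricter one, leaving out 14 high-count loci, a clone block, only the libraries compared, leaving out libraries, and a 2-fold limit. The fit without the 3 libraries richest in those loci was added after seeing the data. Floors cover counting error only.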

Additional observations from a re-analysis of the deposited data

Results flagged for a closer look

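The 4OHT effect differed between conditions for 4 of 7 tested members, by a test of the difference itself (edgeR interaction terms). Values are on the log2 scale, with the second condition subtracted from the first. The share of all genes called was 40.4% for MEKi against no inhibitor, 26.5% for PP1 against no inhibitor and 12.3% for PP1 against MEKi. For MEKi against no inhibitor the differences were -1.90 for Tcf7, -1.63 for Tcf7l2, 0.39 for Tcf7l1 and 0.55 for Notum. For PP1 against no inhibitor they were -1.34 for Tcf7, -1.57 for Tcf7l2 and 0.57 for Notum, and for PP1 against MEKi 0.56 for Tcf7. Those of Tcf7 and Tcf7l2 against no inhibitor were called in each of 23 alternatives, not counting the 2-fold limit. Tcf7l1 was called in 16 of 23, Notum in 15 of 23 for MEKi and in 9 of 23 for PP1, and Tcf7 between inhibitors in 17 of 24. DMSO, with 2 libraries, enters the terms against no inhibitor.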

How the results depend on the processing

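No called member changed sign under any alternative run. Over all comparisons, and without the 2-fold limit, called member results stayed called 480 times and lost the call 61 times, while uncalled ones became called 36 times. Under library totals, MEKi with 4OHT against MEKi had 0 in place of 2, PP1 with 4OHT against PP1 had 1 in place of 4, and the difference between inhibitors had 0 in place of 1. With the high-count loci also left out, MEKi with 4OHT against MEKi had 1 and PP1 with 4OHT against 4OHT had 5 in place of 3. Without MEKi a and MEKi with 4OHT b, MEKi with 4OHT against MEKi had 1 and the difference between inhibitors 0. With a 2-fold limit, 2 members remained called for 4OHT against DMSO, 2 for MEKi with 4OHT against 4OHT, 2 for the MEKi term, and 0 for PP1 with 4OHT against PP1, MEKi with 4OHT against MEKi, PP1 with 4OHT against MEKi with 4OHT and the difference between inhibitors. Leaving out 1 library at a time gave 1 to 2 calls for MEKi with 4OHT against MEKi, 2 to 4 for PP1 with 4OHT against PP1, 2 to 4 for the MEKi term and 0 to 1 for the difference between inhibitors. The clone block gave 2 for that difference and otherwise changed calls of Lef1 only. Over all genes, calls for MEKi against DMSO were 79, with 19 to 132 under the alternatives that moved the count apart from the 2-fold limit (15), for PP1 against DMSO 36 (3 to 85) and for PP1 against MEKi 11 (3 to 20). With library totals they were 1130 and not 2188 for MEKi with 4OHT against MEKi, 2668 and not 4661 for PP1 with 4OHT against PP1, 2153 and not 4199 for PP1 with 4OHT against MEKi with 4OHT, and 514 and not 1829 for the difference between inhibitors. MEKi with 4OHT against MEKi had 1051 without MEKi a and MEKi with 4OHT b, 1437 without MEKi with 4OHT c and 1380 without MEKi a. The 2-fold limit left 2748 genes for 4OHT against DMSO (7752 without it), 204 and 678 for 4OHT within MEKi and within PP1, 2946 (8463) and 1483 (6238) for MEKi and PP1 with 4OHT against 4OHT, 976 between these inhibitor groups, and 2572 (6022), 1384 (3943) and 591 for the MEKi term, the PP1 term and the difference between inhibitors. Depth limits Sp5, T, Cdx1 and Nkd1. The cause was not tested.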
